A study of Mus musculus with 6 samples.

Results

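The 10 genes described here encode the 3 TGFβ ligands (*Tgfb1*, *Tgfb2* and *Tgfb3*), the 3 TGFβ receptors (*Tgfbr1*, *Tgfbr2* and *Tgfbr3*) and the 4 latent TGFβ binding proteins (*Ltbp1*, *Ltbp2*, *Ltbp3* and *Ltbp4*). They were taken by gene symbol, with no measured value in the rule, but were chosen with earlier results of these data known. All 10 were found among the 24421 genes of the deposited count table. RNA was sequenced from alveolar type 2 cells (AT2s), the surfactant-producing progenitors of the lung alveolus, sorted from 3 AT2CTRL and 3 AT2CAB mice. Both groups carried 1 *Sftpc-CreERT2* allele, which gives tamoxifen-dependent recombination in AT2s, and 1 *R26-tdTomato* lineage reporter. AT2CAB mice also carried *R26-caBmpr1a*, from which Cre switches on a ligand-independent, always active BMPR1a, a type I BMP receptor, and in AT2CTRL mice that allele was absent. In each group 1 mouse was 16 weeks old (AT2CTRL replicate 2 and AT2CAB replicate 1) and the other 2 were 12 weeks old. The sort was made on the lineage label, which does not report whether the *R26-caBmpr1a* allele had recombined in the same cell. The comparison asked whether transcripts of the TGFβ signaling machinery differed in AT2s in which the BMP branch was held active.

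TGFβ ligands are secreted as latent complexes in which the propeptide keeps the mature dimer inactive. Latent TGFβ binding proteins tether most of these complexes to the extracellular matrix, from which integrins, proteases or thrombospondin release the active ligand. Active ligand binds the type II receptor TGFBR2, which recruits and phosphorylates the type I receptor TGFBR1, and TGFBR1 then activates SMAD2 and SMAD3. TGFBR3, also called betaglycan, presents ligand to TGFBR2 and matters most for TGFβ2. BMP receptors signal through a separate set of SMADs that share SMAD4 with the TGFβ branch. In the lung, TGFβ is known for its part in alveolar development, epithelial differentiation and fibrosis.

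Promoter sequence is shown for the most abundant gene of each role in AT2CAB libraries, so that the gene whose transcript rose can be read beside 2 genes whose transcripts did not pass edgeR's adjusted test. Each window holds the 250 bases before the RefSeq transcription start on GRCm38.p6, 5′ to 3′ on the strand of the gene. *Tgfb1* lies on chr7:25686752-25687001 (plus strand), *Ltbp3* on chr19:5740650-5740899 (plus strand) and *Tgfbr2* on chr9:116175364-116175613 (minus strand), and none of these windows held an annotated exon base. Capitals mark matches to the motifs searched, on both strands.
Tgfb1: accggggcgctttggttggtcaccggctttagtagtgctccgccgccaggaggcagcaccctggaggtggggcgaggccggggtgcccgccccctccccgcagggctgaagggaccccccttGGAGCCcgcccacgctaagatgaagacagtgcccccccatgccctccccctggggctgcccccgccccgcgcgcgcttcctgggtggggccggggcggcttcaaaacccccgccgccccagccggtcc
Ltbp3: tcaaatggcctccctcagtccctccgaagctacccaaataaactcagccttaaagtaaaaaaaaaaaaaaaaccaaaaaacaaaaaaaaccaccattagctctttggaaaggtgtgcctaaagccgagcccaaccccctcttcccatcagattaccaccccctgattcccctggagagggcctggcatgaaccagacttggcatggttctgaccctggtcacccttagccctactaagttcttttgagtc
Tgfbr2: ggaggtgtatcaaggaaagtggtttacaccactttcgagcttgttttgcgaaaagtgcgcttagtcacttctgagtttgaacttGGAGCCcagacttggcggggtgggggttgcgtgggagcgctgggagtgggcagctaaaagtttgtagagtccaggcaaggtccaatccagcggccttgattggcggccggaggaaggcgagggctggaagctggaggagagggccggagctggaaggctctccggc

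The motifs searched were GGCGCC and GGAGCC (BMP SMAD elements), CAGACA and GTCTAGAC (SMAD3 and SMAD4 elements), TGACTCA (AP-1) and CACGTG (E-box). *Tgfb1* and *Tgfbr2* each held a single match, GGAGCC, placed 128 and 166 bases before the start respectively, and *Ltbp3* held none. Among all 32851 windows of this length, 26% held GGAGCC, 9.59% GGCGCC, 17.1% CAGACA, 0.167% GTCTAGAC, 4.46% TGACTCA and 6.02% CACGTG. The *Tgfb1* window was rich in G and C at 75.2%, above 96.1% of all windows, whereas the value was 58.4% for *Tgfbr2* and 47.2% for *Ltbp3* (median of all windows, 52.4%). RefSeq windows were matched for 8 of the 10 genes.

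The libraries held between 21554249 and 28440227 counts, and 16723 genes passed the expression filter and were tested. *Bmpr1a* transcript did not separate the groups (log2 fold change -0.015, edgeR's adjusted p = 0.983), whereas the BMP target *Id1* was at 18.5 to 20.8 CPM (counts divided by the TMM-scaled library size) in AT2CTRL and 124 to 411 CPM in AT2CAB. All 8 AT2 markers were detected, with *Sftpc* at 42700 CPM or above in each library. AT2CTRL replicate 1 and AT2CAB replicate 3 stood apart from the other 4 libraries, with 176 and 146 CPM summed over 4 Y-linked genes against 0 in the others. Among the 10 genes, fold changes that moved by over 1.5 times or turned sign without both of them are given with and without them. Fold changes of all other genes are given from the fit to all libraries only, and their dependence on these libraries was not examined.

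Levels of different genes are compared as RPKM, reads per kilobase of exon and scaled to library size as CPM is. In AT2CTRL cells the order was *Ltbp3* (104 ± 4.89 RPKM, SD, n = 3), *Tgfbr2* (41.5 ± 9.02), *Tgfb1* (21.1 ± 0.288), *Ltbp4* (20.03 ± 3.88), *Tgfb3* (13.96 ± 2.98), *Tgfbr1* (8.80 ± 1.35), *Tgfbr3* (2.18 ± 0.216), *Ltbp2* (2.13 ± 0.794), *Ltbp1* (1.54 ± 0.434) and *Tgfb2* (0.886 ± 0.145). The values of *Tgfb1* and *Ltbp4* overlapped across libraries, as did those of *Tgfbr3*, *Ltbp2* and *Ltbp1*, so their order is not resolved. In AT2CAB cells *Ltbp3* was again first (144 ± 12.9 RPKM), followed by *Tgfb1* (45.1 ± 6.40), which had moved next to *Tgfbr2* (42.4 ± 3.94) and overlapped with it. *Ltbp4* (26.5 ± 3.71), *Tgfb3* (12.6 ± 4.50), *Tgfbr1* (9.78 ± 1.31), *Ltbp2* (3.76 ± 1.30), *Tgfbr3* (2.69 ± 0.624), *Ltbp1* (2.27 ± 0.147) and *Tgfb2* (1.47 ± 0.248) followed. *Tgfb3* overlapped with *Tgfbr1*, and *Tgfbr3* overlapped with both *Ltbp2* and *Ltbp1*. The genes thus spanned about 2 orders of magnitude, with 1 or 2 dominant members in each role.

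**Figure D1:**
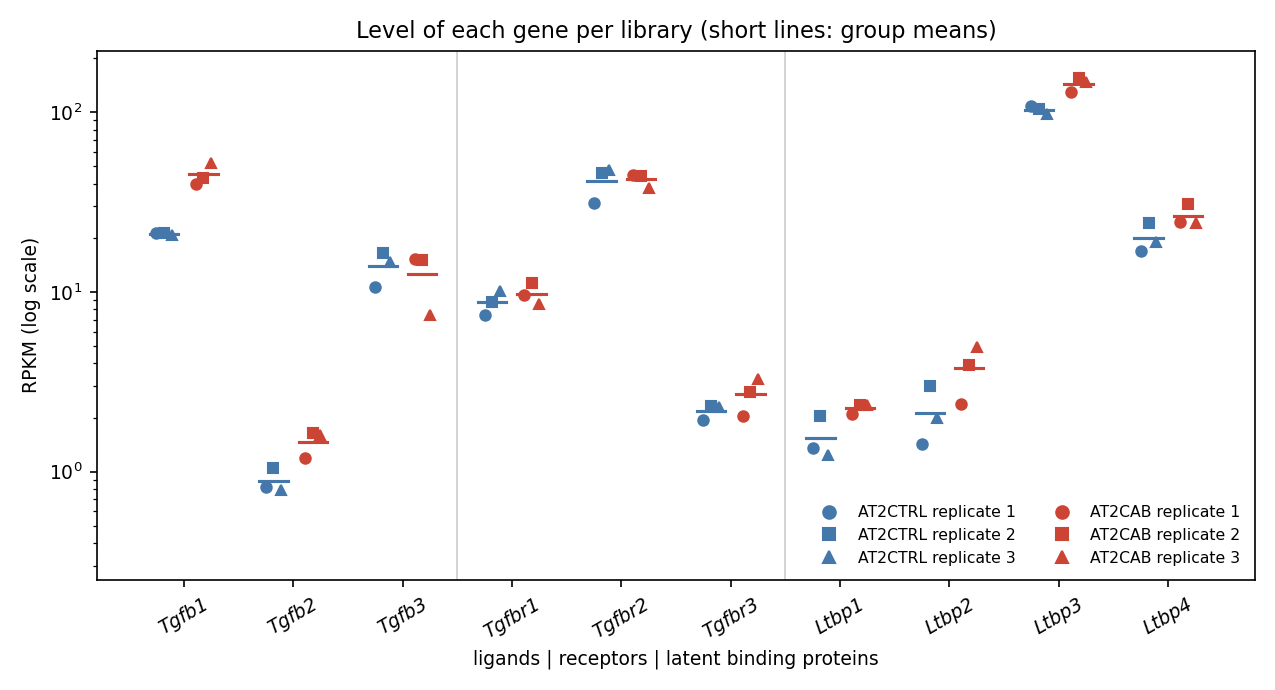
Level of each of the 10 genes in RPKM (vertical axis, log scale), with 1 point per library, 3 AT2CTRL and 3 AT2CAB, and short lines at the group means. *Tgfb1* is at 20.8 to 21.3 RPKM in AT2CTRL and 40.1 to 52.3 RPKM in AT2CAB, while the 3 receptors overlap between groups.

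Among the 10 genes, 1 rose and 0 fell at an adjusted p under 0.05 with more than a 2-fold change (edgeR's quasi-likelihood test, adjusted by Benjamini-Hochberg over all tested genes). The background was 0.227% of tested genes called higher and 0.012% called lower. At an unadjusted p under 0.05, 6 of the 10 were higher and 0 lower, against 4.62% of tested genes higher and 5.05% lower. The 3 AT2CAB values lay above the 3 AT2CTRL values for 4 genes (*Tgfb1*, *Tgfb2*, *Ltbp1* and *Ltbp3*) and below them for 0, whereas this held for 7% of tested genes above and 10.1% below. The estimated log2 fold change was positive for 9 of the 10, with a median of 0.44 against -0.0096 over all tested genes. By role, the median was 0.73 for the ligands, 0.15 for the receptors and 0.52 for the latent binding proteins. In bulk RNA a difference in the number of contributing cells and a difference in RNA per cell cannot be told apart, and this applies to each value here.

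*Tgfb1* encodes the TGFβ1 ligand and lies on mm10 chromosome 7 from 25687002 to 25704996. Its transcript was at 44.7, 44.5 and 43.6 CPM in the AT2CTRL libraries and at 83.9, 90.0 and 110 CPM in the AT2CAB libraries. The AT2CTRL values were nearly equal, every AT2CAB value lay well above them, and AT2CAB replicate 3 was the highest. The means differed 2.14-fold, and the log2 fold change was 1.10 (SE 0.13, 95% interval 0.80 to 1.39, edgeR's adjusted p = 0.0172). The estimate lies close to the 2-fold threshold, and the interval reaches below it. The call was lost when AT2CTRL replicate 1, 2 or 3 or AT2CAB replicate 2 was left out (adjusted p = 0.0739, 0.13, 0.11 and 0.0778), with log2 fold changes of 1.10, 1.09, 1.08 and 1.14. Without AT2CTRL replicate 1 and AT2CAB replicate 3, the 2 libraries with Y-linked reads, the log2 fold change was 1.02 and the adjusted p 0.00887 by edgeR.

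*Tgfb2* (chromosome 1, 186623186 to 186705992) was the least abundant of the 10, at 3.86, 4.97 and 3.73 CPM in AT2CTRL and 5.59, 7.72 and 7.52 CPM in AT2CAB, from 86 to 231 counts per library. The groups did not overlap, but the log2 fold change of 0.73 (SE 0.24, 95% interval 0.18 to 1.28) did not pass adjustment (edgeR's adjusted p = 0.392). *Tgfb3* (chromosome 12, 86056743 to 86079041), the ligand best known from palate and lung development, was at 36.3, 56.1 and 49.4 CPM in AT2CTRL and 51.8, 51.2 and 25.1 CPM in AT2CAB. AT2CAB replicate 3, where *Tgfb1* was highest, had the lowest *Tgfb3* value of the 6 libraries, and the groups overlapped. The *Tgfb3* log2 fold change was -0.15 (SE 0.28, 95% interval -0.79 to 0.49, edgeR's adjusted p = 0.892). It was 0.16 without AT2CAB replicate 3 and -0.00050 without both libraries with Y-linked reads, so its direction rested on that library. Antisense or overlapping gene models cover 12.4% of the *Tgfb3* exon bases and 2.69% of those of *Tgfb2* in GENCODE M21, and the counting did not use strand.

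Taking the 3 ligands as 1 pool, the summed level was 32.9, 38.9 and 36.2 RPKM in AT2CTRL and 56.6, 59.8 and 61.3 RPKM in AT2CAB. *Tgfb1* made up 64.9%, 54.7% and 57.5% of that pool in AT2CTRL and 70.9%, 71.9% and 85.3% in AT2CAB. The groups did not overlap on either measure, and each gave the smallest p that 3 against 3 allows (0.1, exact permutation test, two-sided), so neither can reach 0.05. The *Tgfb1* share was 59.0% ± 5.28 in AT2CTRL and 76.0% ± 8.04 in AT2CAB (SD, n = 3 each), a difference of 17.0 percentage points. *Tgfb3* took 38.5% ± 5.24 of the pool in AT2CTRL and 21.5% ± 8.17 in AT2CAB, also without overlap, and *Tgfb2* took 2.46% and 2.47%. As shares of 1 pool, the lower *Tgfb3* share mirrors the higher *Tgfb1* share and is no separate result. The *Tgfb3* level itself overlapped between groups. The ratio of *Tgfb1* to *Tgfb3* was 1.99, 1.28 and 1.43 in AT2CTRL and 2.62, 2.84 and 7.05 in AT2CAB, with AT2CAB replicate 3 far above the rest.

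**Figure D2:**
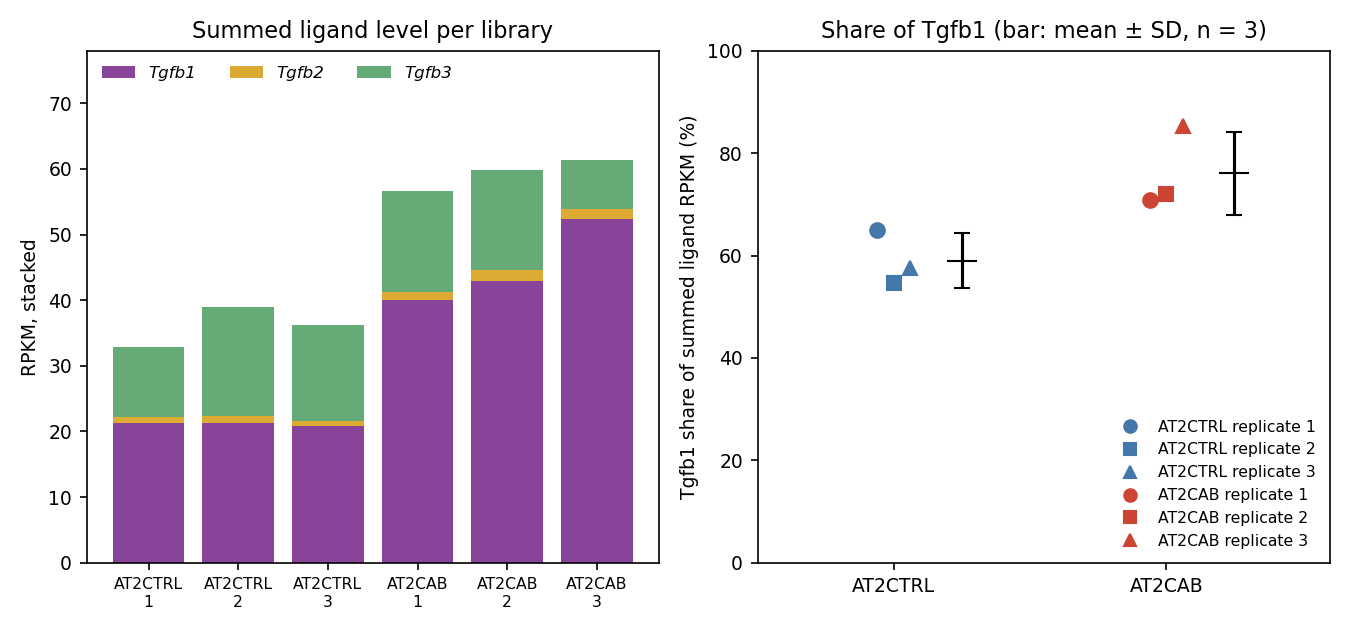
Left, RPKM of the 3 ligands stacked per library; right, the share of *Tgfb1* in the ligand pool in percent, with 1 point per library and bars for the group mean ± SD (n = 3). The AT2CTRL shares run from 54.7% to 64.9% and the AT2CAB shares from 70.9% to 85.3%, with AT2CAB replicate 3 highest.

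None of the 3 receptors was called, and 0 of 3 had an unadjusted p under 0.05. *Tgfbr1* (chromosome 4, 47353305 to 47414924), the type I receptor kinase, was at 42.4, 49.6 and 57.6 CPM in AT2CTRL and 54.4, 63.3 and 48.6 CPM in AT2CAB. Its log2 fold change was 0.15 (SE 0.15, 95% interval -0.20 to 0.50, edgeR's adjusted p = 0.775). It was 0.041 without AT2CTRL replicate 1, 0.056 without AT2CAB replicate 2, 0.26 without AT2CTRL replicate 3 and 0.28 without AT2CAB replicate 3. *Tgfbr2* (chromosome 9, 116087695 to 116175363), the ligand-binding type II receptor whose promoter is shown above, was at 149, 220 and 228 CPM in AT2CTRL and 215, 212 and 181 CPM in AT2CAB. The values overlapped for both kinases, and AT2CTRL replicate 1 was the lowest of the 6 libraries for each. The *Tgfbr2* log2 fold change was 0.030 (SE 0.18, 95% interval -0.37 to 0.43, edgeR's adjusted p = 0.967), -0.15 without AT2CTRL replicate 1 and -0.031 without both libraries with Y-linked reads. These intervals leave out a 2-fold change in either direction for both kinases, but not smaller ones.

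*Tgfbr3* (chromosome 5, 107106570 to 107289595), encoding the co-receptor betaglycan, was at 11.7, 14.1 and 13.9 CPM in AT2CTRL and 12.3, 16.8 and 19.8 CPM in AT2CAB. Its log2 fold change was 0.31 (SE 0.19, 95% interval -0.14 to 0.75, edgeR's adjusted p = 0.647), and 0.099 without both libraries with Y-linked reads. The makeup of the receptor pool was close to constant, with *Tgfbr2* at 78.9% ± 1.90 of the summed RPKM in AT2CTRL and 77.2% ± 1.93 in AT2CAB (SD, n = 3 each, exact permutation p = 0.3). The summed receptor level was 52.5 ± 10.5 RPKM in AT2CTRL and 54.9 ± 4.55 RPKM in AT2CAB, and the groups overlapped. The ratio of summed ligand to summed receptor RPKM was 0.810, 0.683 and 0.603 in AT2CTRL and 0.999, 1.03 and 1.23 in AT2CAB. The groups did not overlap on this ratio (exact permutation p = 0.1, the smallest possible), which contains *Tgfb1* and so is not independent of its difference.

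All 4 latent TGFβ binding proteins had a positive log2 fold change with an unadjusted p under 0.05, and 0 of 4 passed adjustment by edgeR. *Ltbp3* (chromosome 19, 5740904 to 5758532), whose product binds the latent complexes of all 3 ligands, was at 559, 544 and 510 CPM in AT2CTRL and 672, 801 and 769 CPM in AT2CAB. It was the most abundant of the 10 genes in each library and its groups did not overlap. The log2 fold change was 0.48 (SE 0.13, 95% interval 0.18 to 0.77), with an adjusted p of 0.299 by edgeR and 0.018 by DESeq2.

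*Ltbp1* (chromosome 17, 75005529 to 75392967), the founding family member, was at 10.99, 16.6 and 10.1 CPM in AT2CTRL and 17.1, 19.1 and 19.1 CPM in AT2CAB, again without overlap. Its log2 fold change was 0.56 (SE 0.20, 95% interval 0.096 to 1.02, edgeR's adjusted p = 0.435). *Ltbp4* (chromosome 7, 27305141 to 27337612), which also takes part in elastic fiber assembly in the lung, was at 94.1, 136 and 106 CPM in AT2CTRL and 137, 172 and 135 CPM in AT2CAB. The highest AT2CTRL value reached into the AT2CAB range, and the log2 fold change was 0.40 (SE 0.17, 95% interval 0.019 to 0.79, edgeR's adjusted p = 0.497).

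*Ltbp2* (chromosome 12, 84783212 to 84876495), whose product binds fibrillin and is not known to bind the latent ligand, was at 9.37, 19.7 and 13.1 CPM in AT2CTRL and 15.7, 26.0 and 32.7 CPM in AT2CAB. This was the most variable family member, and its groups overlapped. The log2 fold change was 0.82 (SE 0.32, 95% interval 0.084 to 1.56, edgeR's adjusted p = 0.470), and 0.39 without both libraries with Y-linked reads. An antisense gene in the same table, *D030025P21Rik*, overlaps 10.5% of its exon bases.

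The summed level of the 4 *Ltbp* transcripts was 127, 134 and 120 RPKM in AT2CTRL and 159, 191 and 180 RPKM in AT2CAB, without overlap (exact permutation p = 0.1, the smallest possible). *Ltbp3* made up 81.4% ± 3.25 of it in AT2CTRL and 81.6% ± 0.925 in AT2CAB (SD, n = 3 each), so the share of the dominant transcript differed by less than the spread between replicates. Per unit of ligand transcript, the *Ltbp* transcripts were lower in AT2CAB, at a ratio of 2.80, 3.20 and 2.93 against 3.87, 3.45 and 3.33 in AT2CTRL. The groups did not overlap on this ratio (exact permutation p = 0.1), which also contains *Tgfb1* through the ligand sum.

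**Figure D3:**
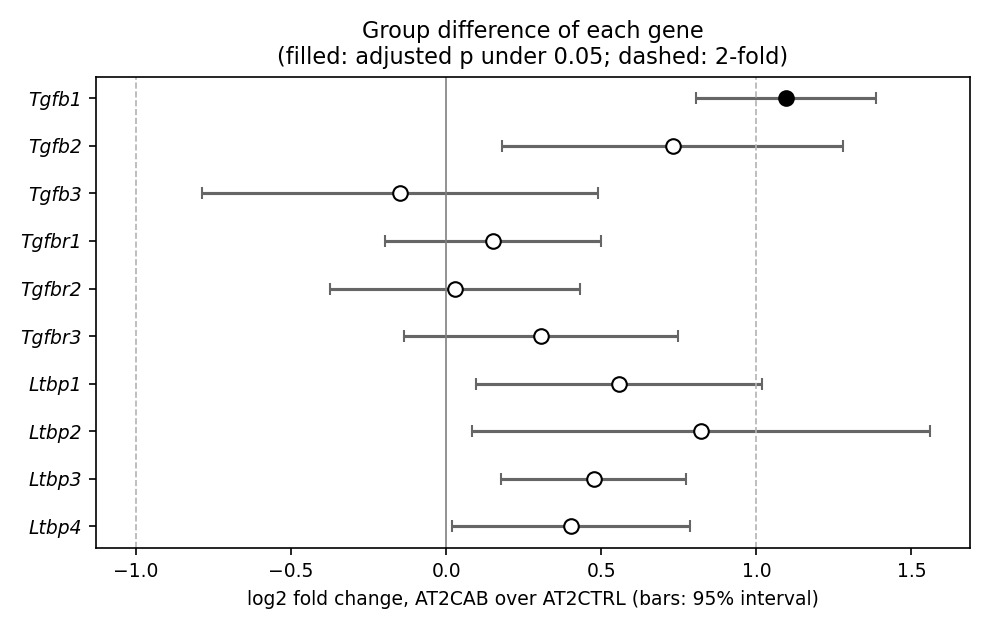
Log2 fold change of AT2CAB over AT2CTRL for each of the 10 genes (edgeR), with bars for the 95% interval and dashed lines at a 2-fold change. *Tgfb1*, at 1.10, is the only gene past both thresholds, and the 4 *Ltbp* intervals lie above 0.

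The measured levels were next set beside markers of cells that a sort can carry over, since fibroblasts, endothelium, mesothelium, leukocytes and platelets also make TGFβ components. All 8 mesenchymal markers had positive log2 fold changes (median 0.61), and their summed level was 209 to 324 CPM in AT2CTRL and 363 to 474 CPM in AT2CAB. All 9 endothelial markers were also positive (median 0.61), at 236 to 465 CPM in AT2CTRL and 411 to 663 CPM in AT2CAB. The mesenchymal sums did not overlap between groups, whereas the endothelial sums did, and 0 of these 17 markers passed edgeR's adjusted threshold with a 2-fold change. The 4 mesothelial markers summed to 10.5 to 23.1 CPM in AT2CTRL and 20.1 to 54.9 CPM in AT2CAB, with AT2CAB replicate 3 highest.

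Immune markers (9 of 11 positive) summed to 117 to 149 CPM in AT2CTRL and to 194, 136 and 85.5 CPM in AT2CAB replicates 1, 2 and 3. The 2 negative markers, *Cd14* and *Cd68*, were the most abundant of this list in AT2CTRL (means 65.6 and 22.1 CPM) and weigh heavily in the sums. *Cd14* was at 28.0 CPM in AT2CAB replicate 3, the library with the lowest sum. Of the other 9 markers there, *Csf1r*, *S100a8* and *S100a9* lay below all AT2CTRL values. *Itgam* and *Cd3e* lay above them, and the rest lay within their range. Of the 5 platelet markers 2 passed the filter, and their list summed to 4.54 to 7.40 CPM in AT2CTRL and 4.50 to 7.97 CPM in AT2CAB. Of the 6 airway markers 5 were tested (3 positive and 2 negative), and *Krt5* was at 0 counts in every library. The airway sums were 720 to 905 CPM in AT2CTRL and 834 to 1213 CPM in AT2CAB. The ciliated cell marker *Tppp3* was the 1 airway marker called (log2 fold change 1.85, SE 0.21, edgeR's adjusted p = 0.0165). It was at 92.3, 93.3 and 104 CPM in AT2CTRL and 243, 363 and 439 CPM in AT2CAB. *Tppp3* weighs heavily in the difference between the airway sums. *Foxj1* was also higher without overlap, at means of 4.12 CPM in AT2CTRL and 6.27 CPM in AT2CAB (0.61, edgeR's adjusted p = 0.570). *Cyp2f2* was lower without overlap, at means of 193 and 133 CPM (-0.53, edgeR's adjusted p = 0.190). *Scgb1a1* (0.17) and *Scgb3a2* (-0.058) overlapped between groups. AT1 markers (6 of 8 positive) summed to 2441 to 3277 CPM and 2614 to 3138 CPM, and AT2 markers (7 of 8 negative) to 112540 to 127230 CPM and 97511 to 107890 CPM. What share of the *Tgfb1* and *Ltbp* values came from other cells was not tested.

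**Figure D4:**
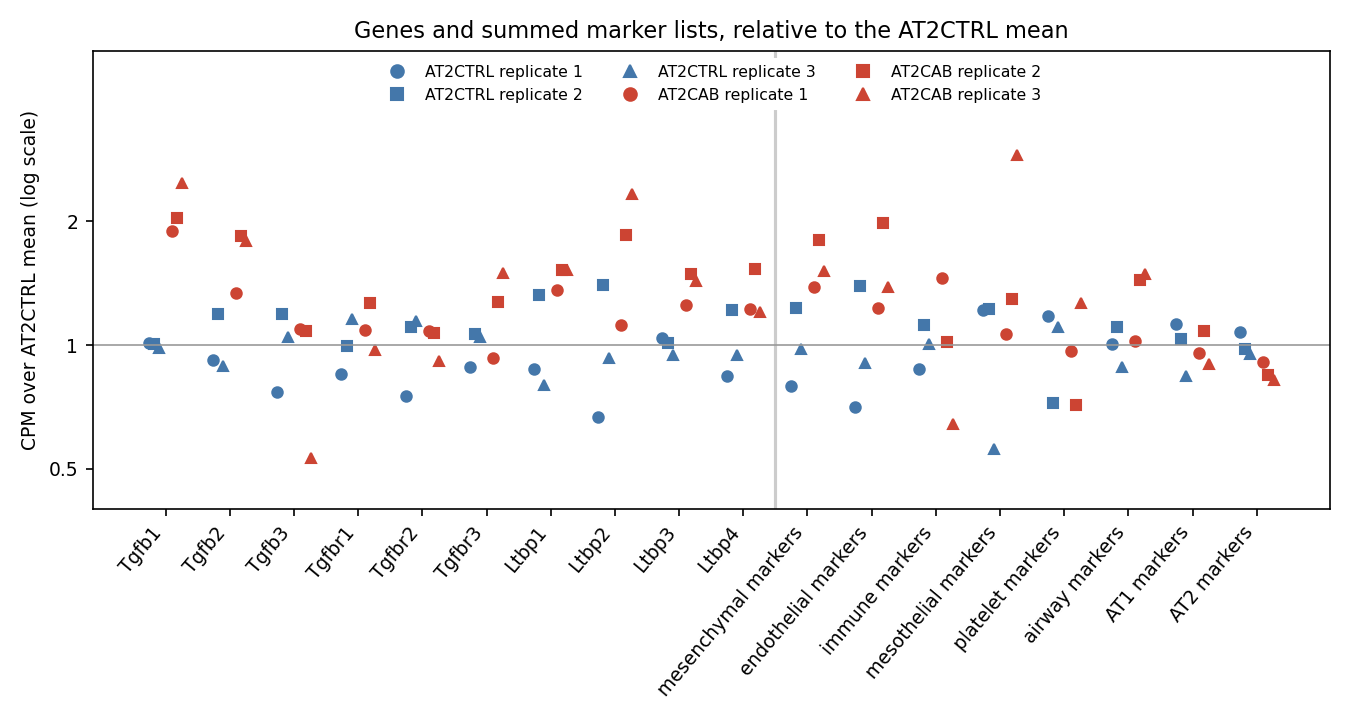
CPM of each of the 10 genes and of each summed marker list, divided by its AT2CTRL mean (log scale), with 1 point per library. *Tgfb1* sits at 1.90, 2.04 and 2.48 times the AT2CTRL mean in AT2CAB, the mesenchymal sum at 1.38, 1.81 and 1.51 times and the immune sum at 1.46, 1.02 and 0.642 times.

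The pattern of *Tgfb1* over the 6 libraries was closest to that of the BMP target *Id3*, which encodes an inhibitor of basic helix-loop-helix factors (Pearson's r of log2 CPM 0.999). In a ranking of all tested genes it was followed by *Gss*, a glutathione synthesis enzyme (0.996), the BMP target *Id1* (0.996), *Slc16a11* (0.995) and *Rsph9* (0.995). Of the other 9 TGFβ genes, *Ltbp3* was most like it (0.955), then *Tgfb2* (0.910) and *Ltbp1* (0.801), while *Tgfbr2* (0.029) and *Tgfb3* (-0.413) were least like it. These values describe 6 libraries in 2 groups, so any gene that differs between the groups is drawn toward *Tgfb1*.

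A list of 65 further genes of the pathway, also chosen with earlier results of these data known, was examined in the same fit. Of these, 64 were tested (*Timp1* was not). In this list 2 rose and 0 fell past both thresholds, against 0.227% of all tested genes higher and 0.012% lower. At an unadjusted p under 0.05, 12 were higher and 0 lower, against 4.62% and 5.05% of all tested genes. The median log2 fold change was 0.16, and 40 of 64 were positive against 8160 of all 16723 tested genes. Among 21 genes of activation and storage, *Bgn*, encoding the matrix proteoglycan biglycan, rose from 53.5, 72.8 and 62.7 CPM in AT2CTRL to 160, 279 and 341 CPM in AT2CAB (log2 fold change 2.05, SE 0.27, edgeR's adjusted p = 0.0264). It was the only gene of that group past both thresholds. *Mmp2* (a gelatinase, 1.13), *Fmod* (fibromodulin, a TGFβ-binding proteoglycan, 1.07), *Fbn1* (fibrillin 1, which anchors latent complexes, 0.82) and *Tgm2* (a transglutaminase, 0.49) had positive log2 fold changes at an unadjusted p under 0.05, and their adjusted p by edgeR ran from 0.273 to 0.467. The abundant *Bmp1*, a protease (334 RPKM in each group, log2 fold change 0.0021), and *Itgb1*, the integrin β1 chain (118 and 113 RPKM, -0.062), overlapped between groups.

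Of 13 receptor regulators 0 were called by edgeR, and *Acvrl1*, the endothelial type I receptor ALK1, was the single gene with an unadjusted p under 0.05 (log2 fold change 0.65, adjusted p = 0.459). *Fkbp1a* (FKBP12, which binds TGFBR1, 67.2 and 61.0 RPKM) and *Bambi* (a decoy receptor, 30.9 and 35.2 RPKM) overlapped between groups. Among 14 signal transducers, *Ski*, a co-repressor of SMADs, rose from 131, 175 and 169 CPM to 298, 368 and 313 CPM (log2 fold change 1.04, SE 0.15, edgeR's adjusted p = 0.0486). Its relative *Skil* (0.55, adjusted p = 0.499) and the inhibitory *Smad7* (1.33, adjusted p = 0.101), which BMP signaling also induces, were higher without passing edgeR's adjusted test. *Smad7* was at 82.9, 63.1 and 65.8 CPM in AT2CTRL and 126, 165 and 240 CPM in AT2CAB. The receptor-activated *Smad2* (-0.30) and *Smad3* (-0.13) and the shared *Smad4* (-0.19) had negative log2 fold changes and overlapped. Leaving out any 1 library other than AT2CAB replicate 1 lost the calls of *Bgn* and *Ski*, and leaving out that library lost *Ski* only. The *Ski* call was also lost with DESeq2's size factors in edgeR, with limma-voom, with age as a covariate and without both libraries with Y-linked reads. *Smad7* was called by DESeq2 and, with edgeR, with no filter on low counts, with Y-linked reads as a covariate, without both libraries with Y-linked reads and without AT2CAB replicate 1.

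Of 17 response genes 16 were tested and 0 were called by edgeR, with 3 at an unadjusted p under 0.05, all higher in AT2CAB. Among these, *Col1a1* (collagen I, log2 fold change 0.70, edgeR's adjusted p = 0.114) and *Fn1* (fibronectin, 0.89, adjusted p = 0.461), which fibroblasts express strongly, had non-overlapping groups. *Col1a1* was at 25.7, 31.8 and 30.9 CPM in AT2CTRL and 44.2, 51.8 and 47.3 CPM in AT2CAB. The most abundant response genes, *Junb* (398 and 419 RPKM), *Col4a1* (108 and 107 RPKM) and *Cdkn1a* (106 and 116 RPKM), had log2 fold changes of 0.074, -0.014 and 0.12 and overlapped.

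**Figure D5:**
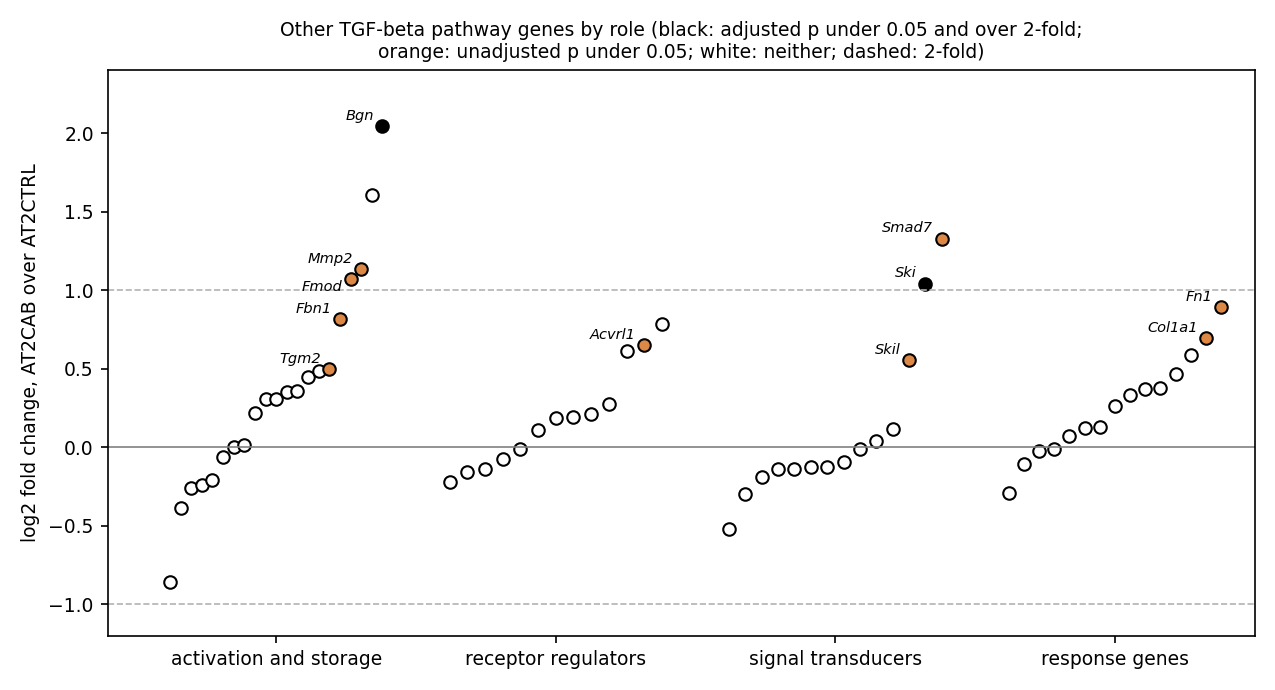
Log2 fold change of AT2CAB over AT2CTRL (edgeR) for the tested genes of the wider pathway list that are reported here, ordered within 4 roles, with genes past both thresholds in black and those with only an unadjusted p under 0.05 in orange. *Bgn* at 2.05 and *Ski* at 1.04 are the called genes, and every orange point lies above 0.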

How the data were processed

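RNA was sequenced from sorted AT2s of 3 AT2CTRL and 3 AT2CAB mice, grouped and numbered by the sample labels. Per the study's methods, the authors trimmed reads (Trimmomatic), aligned them to mm10 with HISAT2, removed duplicates and counted fragments with featureCounts. The version, 1.5.3, is named by the header of the deposited counts. The deposited values are raw counts for 24421 genes, with the exon length of each gene. The counting ignored strand, and reads that fell on more than 1 gene were dropped. Unlike in the methods, each value is taken here as a number of reads: the file header holds no read-pair option and 56.9% to 60.8% of low counts were even. Counting both mates overstates precision. A floor of 3 counts equals 0.105 to 0.139 CPM and reflects counting error alone.

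Counts were scaled by TMM and tested with edgeR 4.0.16 in R 4.3.3 (filterByExpr, minimum count 10; quasi-likelihood test; Benjamini-Hochberg adjustment over all 16723 tested genes). RPKM used the deposited exon lengths. Shares and sums, 13 in all, were compared by exact two-sided permutation tests over libraries without adjustment. DESeq2 1.42.0 (the tool the methods name), limma-voom (limma 3.58.1), other scalings, no filter, covariates, the replicate block and each library left out were alternatives. Scripts were tested on simulated data. The genes and lists were chosen with earlier results of these data known. All 10 genes are named, with listed pathway genes past both thresholds or an unadjusted p of 0.05 and, otherwise, the most abundant per role. Motif windows are those of RefSeq on GRCm38.p6, and overlapping gene models are those of GENCODE M21. Values of 2 genes are not reported here.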

Additional observations from a re-analysis of the deposited data

How the results depend on the processing

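The *Tgfb1* log2 fold change ranged from 1.01 to 1.23 over 16 settings and was positive in each, and the adjusted p was under 0.05 in 11. With 1 library left out in turn it was 1.01 to 1.20. The number of the 10 genes called, 1 as reported, was 0 to 1 with 1 library left out. The count of pathway genes called, 2 as reported, was 1 with DESeq2 size factors, limma-voom or age as a covariate, 5 with DESeq2, 6 with Y-linked reads as a covariate, and 0 to 2 with 1 library left out. Over all genes, 40 were called as reported, 62 with no filter on low counts, 144 with DESeq2, 26 with limma-voom, 142 with the Y-linked covariate and 6 to 63 with 1 library left out. The direction turned for *Tgfbr2* without both libraries with Y-linked reads (-0.031) and with 1 library left out (-0.15 to 0.14), and for *Tgfb3* with 1 library left out (-0.31 to 0.16). The cause was not tested. The *Tgfb1* share of the ligand pool differed by 12.4 to 19.95 percentage points under all 8 alternatives run. *Tgfb2* and all 4 *Ltbp* genes were positive in 16 of 16 settings. The median log2 fold change of all genes was 0.12 when scaled by library size only, 0.064 by the upper quartile and 0.017 by the size factors of DESeq2.

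Replicate numbers mark different mice, and the correlations of deviations between libraries of one number were -0.24, 0.20 and -0.53, so the libraries share only a number. With the replicate block, *Tgfb1* had a log2 fold change of 1.09 (edgeR's adjusted p = 0.0629), 0 of the 10 genes and 1 pathway gene (*Bgn*, without *Ski*) were called, and 41 genes were called in all. Not every library correlated best with its own number.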
